A study of Mus musculus with 34 samples.

Results

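This account covers 10 of the 23109 genes in the deposited RNA-Seq tables, those that encode the AP-1 and early growth response transcription factors. They are the Fos family members *Fos*, *Fosb*, *Fosl1*, and *Fosl2*, the Jun family members *Jun*, *Junb*, and *Jund*, the related factor *Atf3*, and the early growth response genes *Egr1* and *Egr2*. They were chosen by name, with earlier results of these data known. All 10 were found in all 14 libraries, each with 1 RefSeq transcript.

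AP-1 is a dimer of leucine zipper proteins. Fos proteins do not pair with each other and bind DNA with Jun proteins, whereas Jun proteins also pair with each other, and ATF3 pairs with itself or with Jun proteins and often acts as a repressor. EGR1 and EGR2 are zinc finger proteins that bind GC-rich elements. Many of these genes are immediate early genes, which growth factors, stress, and cAMP switch on within minutes and for a short time through SRF, its ternary complex factors, and CREB. In fat cell precursors they are known as part of the early response to the hormones that start differentiation.

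All cells were brown preadipocytes, the precursors of brown fat cells, from interscapular brown fat of newborn C57BL/6J pups, immortalized with the SV40 T antigen (SV40T). RNA-Seq was performed in 3 experiments with 14 libraries, and there was 1 library per condition. In the adipogenesis experiment, cells carried retrovirus for FLAG-tagged WT histone H3.3 or for its K36M mutant and were collected at D0, D2, and D7. In the Rosi experiment, the same 2 kinds of cells also carried ectopic PPARγ, the master regulator of adipogenesis, and received DMSO or the PPARγ ligand rosiglitazone (Rosi). The paper describes these cells as sub-confluent when treated, so density differed between them and the cells induced for adipogenesis. In the Nsd2 KD experiment, cells carried lentivirus for a control shRNA (Ctrl) or for an shRNA against *Nsd2*, which encodes an H3K36 methyltransferase, and were collected at D0 and D2. Adipogenesis was induced in confluent cells with insulin, T3, IBMX, dexamethasone, and indomethacin. IBMX blocks cAMP breakdown and dexamethasone activates the glucocorticoid receptor, and the methods describe medium with insulin and T3 alone after D2. The step from D2 to D7 therefore also spans removal of these drugs. The methods give 24 h for DMSO and Rosi alike, whereas the labels give a time of 0 for DMSO and 24 h for Rosi, so whether the 2 were collected together is not settled. The labels call the cells GR-flox/flox preadipocytes given Vec or Cre, whereas the methods describe WT mice, and no label says which vector a library carried. *Nr3c1*, the glucocorticoid receptor gene, had 10.1 to 30.9 RPKM, which does not show whether an exon was deleted.

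RPKM divides reads by transcript length and sequencing depth, so levels of different genes can be set side by side. Libraries had 12213559 to 24365867 mapped reads, and 3 reads equal 0.123 to 0.246 RPKM for a transcript of 1 kb. As a check of the labels, *Nsd2* had 5.85 and 7.01 RPKM in the Nsd2 KD libraries and at least 16.7 in the other 12. Of the marker lists, 6 of 6 brown preadipocyte genes reached 1 RPKM, with sums of 56.2 to 291 RPKM. Of 6 adipocyte genes, 5 did, with sums from 7.79 RPKM (Nsd2 KD at D0) to 3638 (WT at D2). The gene that did not was *Ucp1*, the marker selective for brown fat, with at most 0.194 RPKM (K36M at D2) and 0.0457 in WT cells at D7. For macrophages and leukocytes 1 of 5 genes did (*Csf1r*, up to 2.95 RPKM), for endothelium 1 of 5 (*Tek*, up to 2.08), and for skeletal muscle 1 of 6 (*Acta1*, up to 67.5 in K36M cells with PPARγ and DMSO), with *Myod1* and *Myog* below 1. The brown preadipocyte list includes *Pparg*, which rose from 13.4 RPKM at D0 to 101 at D7 in WT cells and was ectopic in the Rosi experiment. In bulk RNA, fewer cells of a type and less RNA per cell cannot be told apart. Ratios below are on the log2 scale of RPKM. Their 95% intervals come from reads and cover counting error only, so they compare 2 libraries and not 2 conditions. A gene counts as higher or lower when it differs over 2-fold, among genes with at least 1 RPKM in either library. *Fosb* never reached 1 RPKM, so at most 9 of the 10 genes were counted. The comparisons share libraries and are not independent of each other.

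The sequences before the transcription start are shown for the pair with the widest ranges, *Atf3* and *Egr2*, and for *Fos* and *Junb*, whose levels tended to move together. They are 250 bases of RefSeq sequence (GRCm38.p6, a later build than the mm9 of the files), 5′ to 3′ on the gene's strand, at chr1:191183334-191183583 (−) for *Atf3*, chr10:67537619-67537868 (+) for *Egr2*, chr12:85473640-85473889 (+) for *Fos*, and chr8:84978749-84978998 (−) for *Junb*. *Egr2* has 5 windows in the table, and this is the first of 3 overlapping ones with the most matches. Capitals mark the core TGACG of the cyclic AMP response element on either strand, the CArG box bound by SRF, and the TATA box TATAAA.
Atf3: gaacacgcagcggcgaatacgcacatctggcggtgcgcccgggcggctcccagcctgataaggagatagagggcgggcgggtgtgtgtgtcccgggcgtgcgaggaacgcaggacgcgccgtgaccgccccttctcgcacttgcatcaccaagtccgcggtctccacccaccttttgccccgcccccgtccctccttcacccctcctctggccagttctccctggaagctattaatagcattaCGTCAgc
Egr2: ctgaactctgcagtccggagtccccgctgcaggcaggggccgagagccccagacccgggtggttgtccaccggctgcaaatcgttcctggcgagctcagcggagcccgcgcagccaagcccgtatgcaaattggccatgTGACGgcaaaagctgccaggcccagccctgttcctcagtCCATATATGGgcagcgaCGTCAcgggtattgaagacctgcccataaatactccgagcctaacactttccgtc
Fos: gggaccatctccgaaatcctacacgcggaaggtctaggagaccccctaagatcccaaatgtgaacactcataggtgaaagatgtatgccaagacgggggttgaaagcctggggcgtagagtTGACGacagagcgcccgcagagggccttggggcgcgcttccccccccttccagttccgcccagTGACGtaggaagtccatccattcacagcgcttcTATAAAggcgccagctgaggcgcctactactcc
Junb: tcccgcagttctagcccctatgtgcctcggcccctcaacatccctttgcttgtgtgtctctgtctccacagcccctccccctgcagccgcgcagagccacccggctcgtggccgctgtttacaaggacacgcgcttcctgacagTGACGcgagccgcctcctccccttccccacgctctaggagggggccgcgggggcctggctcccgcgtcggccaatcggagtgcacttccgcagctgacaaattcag
Windows were found for 8 of the 10 genes, and not for *Fosl1* and *Egr1*. TGACG, searched on both strands, was in 5 of the 8 (*Fos*, *Fosb*, *Junb*, *Atf3*, and *Egr2*) and in 19.8% of the 27025 genes with a window. The full element TGACGTCA, which contains TGACG, was in none of the 8 and in 1.77% of all genes. The AP-1 element TGANTCA was in none of the 8 and in 7.82% of genes, the EGR element GCGNGGGCG was in *Fosb* and *Fosl2* and in 5.33%, the CArG box was in *Egr2* and in 1.62%, and TATAAA was in *Fos* and in 14.3%. These matches describe letters in a short window and not sites in use. Variants of these elements, and sites beyond the 250 bases, were not searched, so a missing match does not show that a gene lacks such a site.

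The highest levels were those of *Jund*, *Junb*, *Jun*, *Fosl1*, *Fosl2*, and *Egr1*. Median RPKM over the 14 libraries was 46.3 for *Jund*, 42.2 for *Junb*, 34.1 for *Jun*, 33.0 for *Fosl1*, 32.0 for *Fosl2*, 25.5 for *Egr1*, 14.7 for *Atf3*, 3.92 for *Egr2*, 2.43 for *Fos*, and 0.489 for *Fosb*. The ranges of the first 6 overlapped, so their order varied by library. *Fosl1* and *Fosl2* made up most Fos family RNA in each library, and *Fos* and *Fosb*, the classic stimulus-induced members, had the lowest medians. The ratio of the highest to the lowest library was 58.5 for *Egr2*, 53.1 for *Atf3*, 11.1 for *Fos*, 9.41 for *Fosl1*, 7.19 for *Egr1*, 5.36 for *Junb*, 5.31 for *Fosl2*, 4.25 for *Fosb*, 3.59 for *Jun*, and 2.48 for *Jund*.

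**Figure D1:**
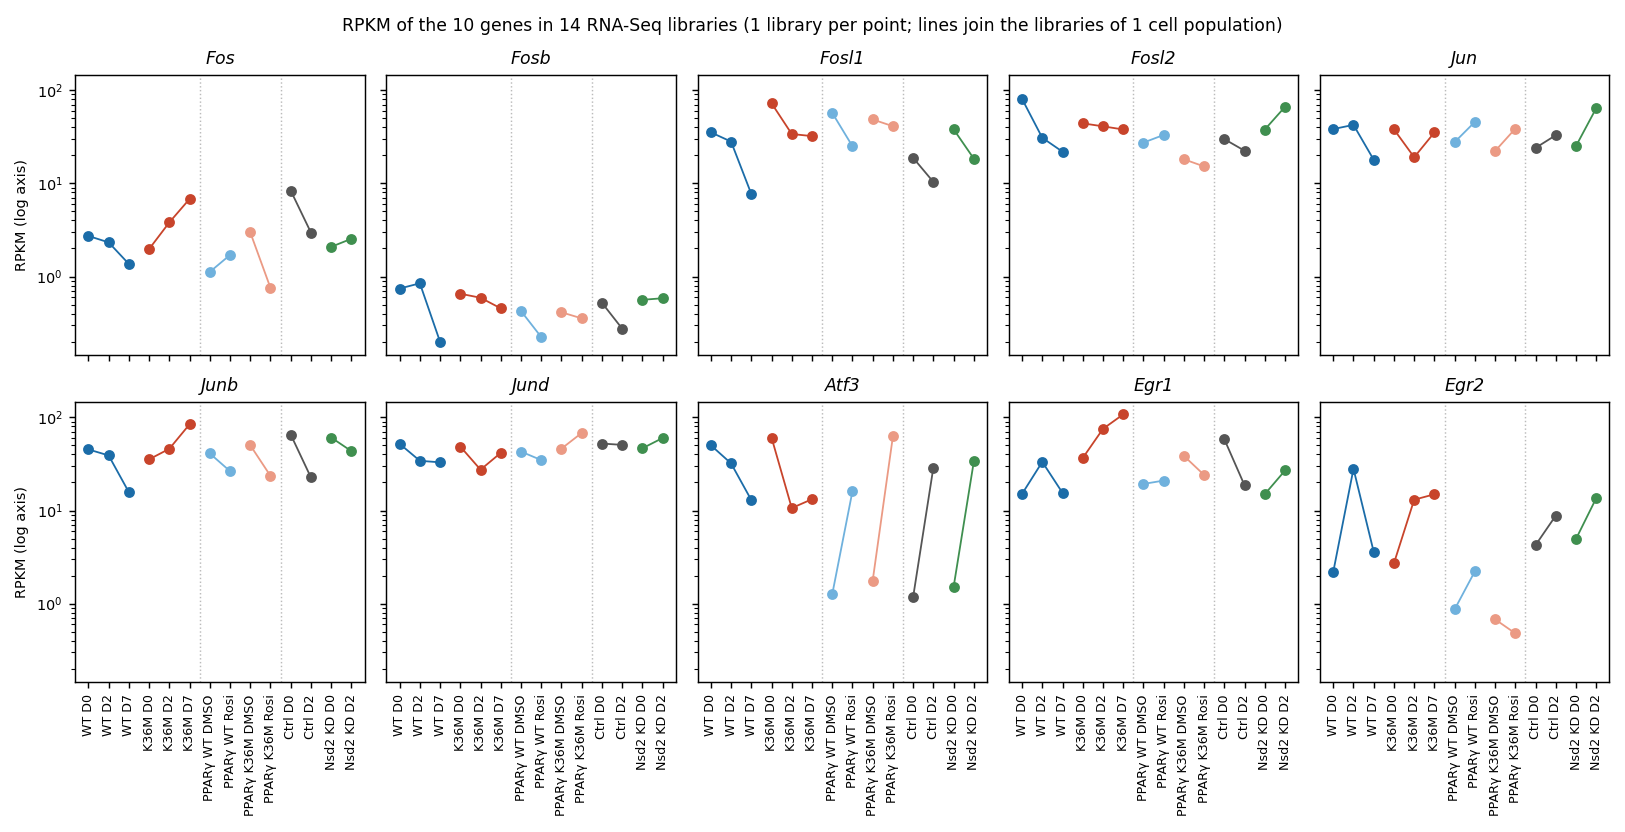
RPKM (log axis) of each of the 10 genes in the 14 libraries, where each point is 1 library, lines join the libraries of one cell population, and dotted lines part the 3 experiments. *Jund* lies between 27.4 and 68.0 RPKM throughout, while *Atf3* runs from 1.18 to 62.5 and *Egr2* from 0.480 to 28.1.

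Among the Fos family, *Fos* (NM_010234, mm9 chr12:86814840-86818223) is the founding member, a partner of Jun proteins. It had 2.73, 2.33, and 1.36 RPKM in WT cells at D0, D2, and D7, and 1.97, 3.81, and 6.81 in K36M cells. The Rosi experiment gave 1.12 (DMSO) and 1.70 RPKM (Rosi) for WT cells, and 2.98 and 0.755 for K36M cells. Ctrl cells had 8.37 and 2.96 RPKM at D0 and D2, and Nsd2 KD cells 2.08 and 2.54. The highest libraries were Ctrl at D0 and K36M at D7, and the other 12 lay below 4 RPKM. The counts behind these values were small, 20 to 346 reads.

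*Fosb* (NM_008036, chr7:19888070-19895394), a close relative of *Fos*, had 0.199 to 0.846 RPKM, from 10 to 61 reads. The highest value was in WT cells at D2 and the lowest in WT cells at D7. *Fosl1* (NM_010235, chr19:5447703-5455945) encodes FRA-1, which lacks the activation domain of FOS. It had 35.3, 28.1, and 7.71 RPKM in WT cells at D0, D2, and D7, and 72.5, 33.9, and 32.2 in K36M cells. Under ectopic PPARγ, levels were 57.2 (DMSO) and 25.1 RPKM (Rosi) for WT cells, and 48.6 and 41.1 for the K36M ones. Ctrl cells had 18.8 and 10.4 RPKM at D0 and D2, and Nsd2 KD cells 38.1 and 18.4. At each later time or with Rosi, *Fosl1* was lower than at D0 or with DMSO in all 6 cell populations.

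*Fosl2* (NM_008037, chr5:32438845-32460204) encodes FRA-2, the other Fos protein without that domain. It had 80.7, 30.9, and 21.9 RPKM in WT cells at D0, D2, and D7, against 44.1, 41.0, and 37.9 in K36M cells. The DMSO and Rosi libraries had 27.4 and 33.1 RPKM for WT cells, and 18.2 and 15.2 for K36M cells. At D0 and D2 the Ctrl libraries had 29.9 and 22.4 RPKM, and the Nsd2 KD libraries 37.9 and 66.4. The log2 ratio of *Fosl2* at D2 to D0 was −1.39 in WT, −0.11 in K36M, −0.41 in Ctrl, and 0.81 in Nsd2 KD cells, of which only the WT one passed 2-fold. The ratio of *Fosl1* to *Fosl2* RPKM ran from 0.278 in Nsd2 KD cells at D2 to 2.70 in K36M cells with PPARγ and Rosi.

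Among the Jun family, *Jun* (NM_010591, chr4:94715725-94718913) encodes the strongest activator of the 3. It had 38.3, 42.5, and 17.9 RPKM in WT cells at D0, D2, and D7, and 38.0, 19.1, and 35.2 in K36M cells. The DMSO and Rosi libraries had 27.7 and 45.7 RPKM for WT cells, and 22.3 and 38.7 for K36M cells. At D0 and D2, *Jun* was at 24.0 and 32.9 RPKM in Ctrl and at 25.2 and 64.3 in Nsd2 KD cells. Its D2 level was the lower of D0 and D2 in K36M cells alone among the 4 time courses.

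*Junb* (NM_008416, chr8:87500811-87502617), which can dampen the activity of JUN, had 45.3, 39.0, and 15.7 RPKM in WT cells at D0, D2, and D7, and 35.4, 46.0, and 84.2 in K36M cells. Its DMSO and Rosi levels were 41.0 and 26.4 RPKM for WT cells with PPARγ, and 50.2 and 23.5 for the K36M ones. Its Ctrl levels were 65.4 and 22.6 RPKM at D0 and D2, and its Nsd2 KD levels 60.7 and 43.4. The lowest and the highest *Junb* libraries were thus WT and K36M cells at the same day, D7. *Jund* (NM_010592, chr8:73221638-73224515), the Jun gene least tied to stimulation, had 27.4 to 68.0 RPKM, lowest in K36M cells at D2 and highest in K36M cells with PPARγ and Rosi. No ratio of *Jund* passed 2-fold in the 17 comparisons below. The nearest, K36M against WT cells with Rosi, was 0.97, and 1.04 under median-ratio scaling.

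*Atf3* (NM_007498, chr1:192994175-193007219) is induced by many stresses and lies downstream of ATF4. It had 50.2, 32.1, and 13.0 RPKM in WT cells at D0, D2, and D7, and 60.7, 10.6, and 13.2 in K36M cells. With PPARγ, WT cells had 1.26 RPKM under DMSO and 16.1 under Rosi, and K36M cells 1.77 and 62.5. Ctrl cells went from 1.18 RPKM at D0 to 28.9 at D2, and Nsd2 KD cells from 1.51 to 33.6. The 4 libraries below 2 RPKM were the D0 and DMSO libraries of the Rosi and Nsd2 KD experiments, and the next lowest library had 10.6. The WT and K36M libraries at D0 of the adipogenesis experiment were among the 3 highest. *Atf4*, a partner factor that can induce *Atf3*, had its 4 lowest levels in the same 4 libraries (82.9 to 120 RPKM), against at least 218 in the other 10.

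Of the early growth response genes, *Egr1* (NM_007913), an immediate early gene, had 15.1, 33.3, and 15.5 RPKM in WT cells at D0, D2, and D7, and 36.6, 75.2, and 107.6 in K36M cells. With PPARγ, WT cells had 19.3 RPKM under DMSO and 21.0 under Rosi, and K36M cells 38.6 and 24.1. Ctrl cells went from 58.2 RPKM at D0 to 18.6 at D2, and Nsd2 KD cells from 15.0 to 26.9. The K36M library was above the WT library in all 5 matched pairs, by 0.20 to 2.80 on the log2 scale, with a mean of 1.29 ± 0.94 (SD, n = 5 pairs). An exact two-sided sign-flip permutation test over these 5 pairs gave p = 0.0625, the smallest it allows, so it cannot reach 0.05. The pairs differ in day or treatment and share cell populations, so they are not independent replicates. The sign flips treat them as independent, so the p-values of this test cannot decide whether K36M changed a gene. For the other 9 genes the same exact permutation test gave p of 0.125 for *Fosl1* to 0.688 for *Egr2*. *Egr2* (NM_010118, chr10:66998223-67004936), known as Krox20 and as an early factor of adipogenesis, had 2.19, 28.1, and 3.60 RPKM in WT cells at D0, D2, and D7, and 2.72, 13.1, and 14.9 in K36M cells. With PPARγ, WT cells had 0.868 RPKM under DMSO and 2.22 under Rosi, and K36M cells 0.678 and 0.480. Ctrl cells went from 4.25 RPKM at D0 to 8.82 at D2, and Nsd2 KD cells from 4.95 to 13.6. *Egr2* was higher at D2 than at D0 in all 4 time courses, and its 4 libraries with ectopic PPARγ included the 3 lowest.

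**Figure D2:**
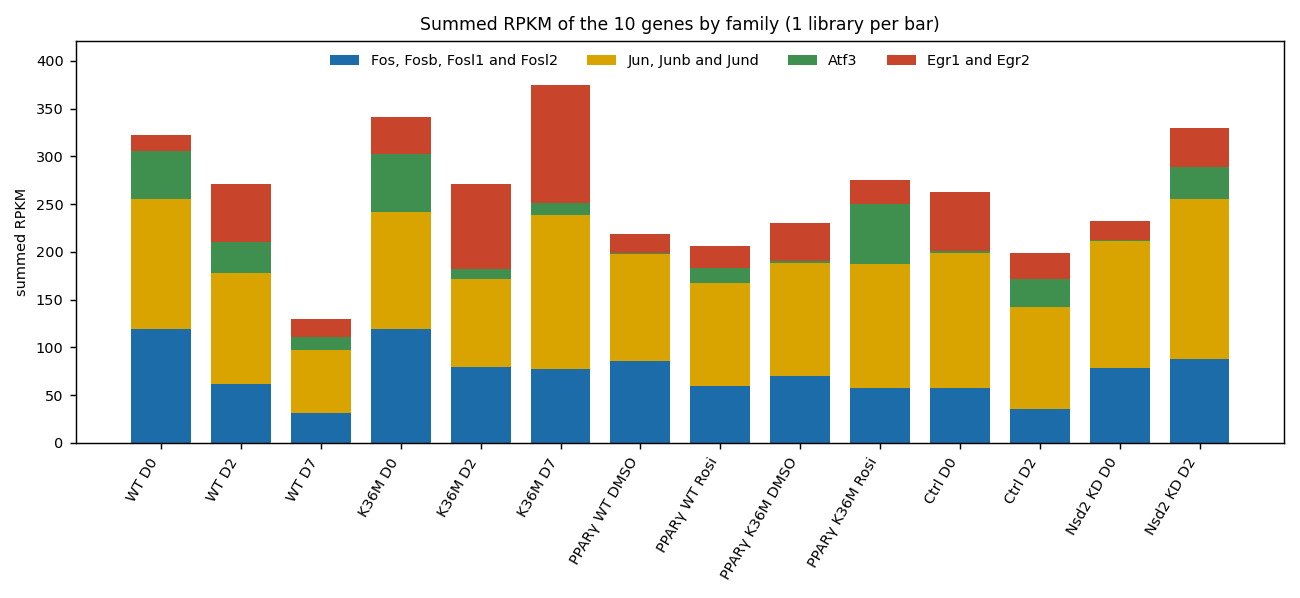
Summed RPKM of the 10 genes in each library, stacked by family, where each bar is 1 library. The sum is lowest in WT cells at D7 (129.7 RPKM) and highest in K36M cells at D7 (374 RPKM).

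The sum over the 10 genes was 322, 271, and 129.7 RPKM in WT cells at D0, D2, and D7, and 341, 271, and 374 in K36M cells. The Jun family sum was above the Fos family sum in all 14 libraries, with a Fos to Jun ratio of 0.339 in Ctrl cells at D2 to 0.978 in K36M cells at D0. The sum of *Egr1* and *Egr2* was 17.3 RPKM in WT cells at D0 and 122.6 in K36M cells at D7, the lowest and the highest of the 14.

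The first question was how these genes changed as adipogenesis began, from D0 to D2. In WT cells *Egr2* and *Egr1* were higher at D2, and *Fosl2* was lower. *Egr2* was 12.8-fold higher (log2 ratio 3.68, interval 3.43 to 3.94) and *Egr1* 2.21-fold higher (1.14, 1.03 to 1.25), while *Fosl2* was 2.61-fold lower (−1.39, −1.44 to −1.33). Thus 2 of 9 genes were higher and 1 lower, where 9.38% of 12155 genes were higher and 17.3% lower. In K36M cells *Egr2* (2.26, 2.00 to 2.53) and *Egr1* (1.04, 0.96 to 1.12) were again higher, and *Atf3* (−2.52, −2.70 to −2.33) and *Fosl1* (−1.10, −1.22 to −0.98) were lower. That is 2 of 9 higher and 2 lower, where 10.2% of genes were higher and 11.2% lower.

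In Ctrl cells *Atf3* was 24.5-fold higher at D2 (4.62, 4.19 to 5.07) and *Egr2* 2.07-fold higher (1.05, 0.83 to 1.28). *Egr1* (−1.64, −1.74 to −1.55), *Junb* (−1.53, −1.65 to −1.42), and *Fos* (−1.50, −1.80 to −1.20) were lower. The counts were 2 of 9 higher and 3 lower, where 11.3% of genes were higher and 16.1% lower. In Nsd2 KD cells *Atf3* was 22.3-fold higher (4.48, 4.08 to 4.91), *Egr2* 2.74-fold higher (1.45, 1.25 to 1.67), and *Jun* 2.55-fold higher (1.35, 1.26 to 1.44), and *Fosl1* was lower (−1.05, −1.20 to −0.90). These are 3 of 9 higher and 1 lower, where 11.8% of genes were higher and 16.8% lower. *Egr2* was thus over 2-fold higher at D2 in each of the 4 time courses, although the Ctrl value lay near the line and was 0.90 with a pseudocount of 1 and 1.00, just below it, under median-ratio scaling. *Egr1* was over 2-fold higher in WT and K36M cells and over 2-fold lower in Ctrl cells. *Atf3* was over 20-fold higher in both populations of the Nsd2 KD experiment, whereas its ratios in the adipogenesis experiment were −0.65 in WT and −2.52 in K36M cells.

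Between D2 and D7, when the drugs were also removed, WT and K36M cells differed. In WT cells 6 of 9 genes were lower at D7 and none higher, where 5.08% of genes were lower and 15.7% higher. All 9 ratios were below 0, with a median of −1.24, against a median of 0.04 over all genes counted. The lower genes were *Egr2* (−2.96, −3.22 to −2.72), *Fosl1* (−1.87, −2.11 to −1.63), *Junb* (−1.31, −1.48 to −1.15), *Atf3* (−1.31, −1.48 to −1.13), *Jun* (−1.24, −1.36 to −1.13), and *Egr1* (−1.10, −1.24 to −0.97). In K36M cells no gene passed 2-fold in either direction, where 15.7% of genes were higher and 7.02% lower. There 7 of 9 ratios were above 0, with a median of 0.52, the largest being those of *Jun* (0.88, 0.75 to 1.01), *Junb* (0.87, 0.76 to 0.98), and *Fos* (0.84, 0.47 to 1.21).

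**Figure D3:**
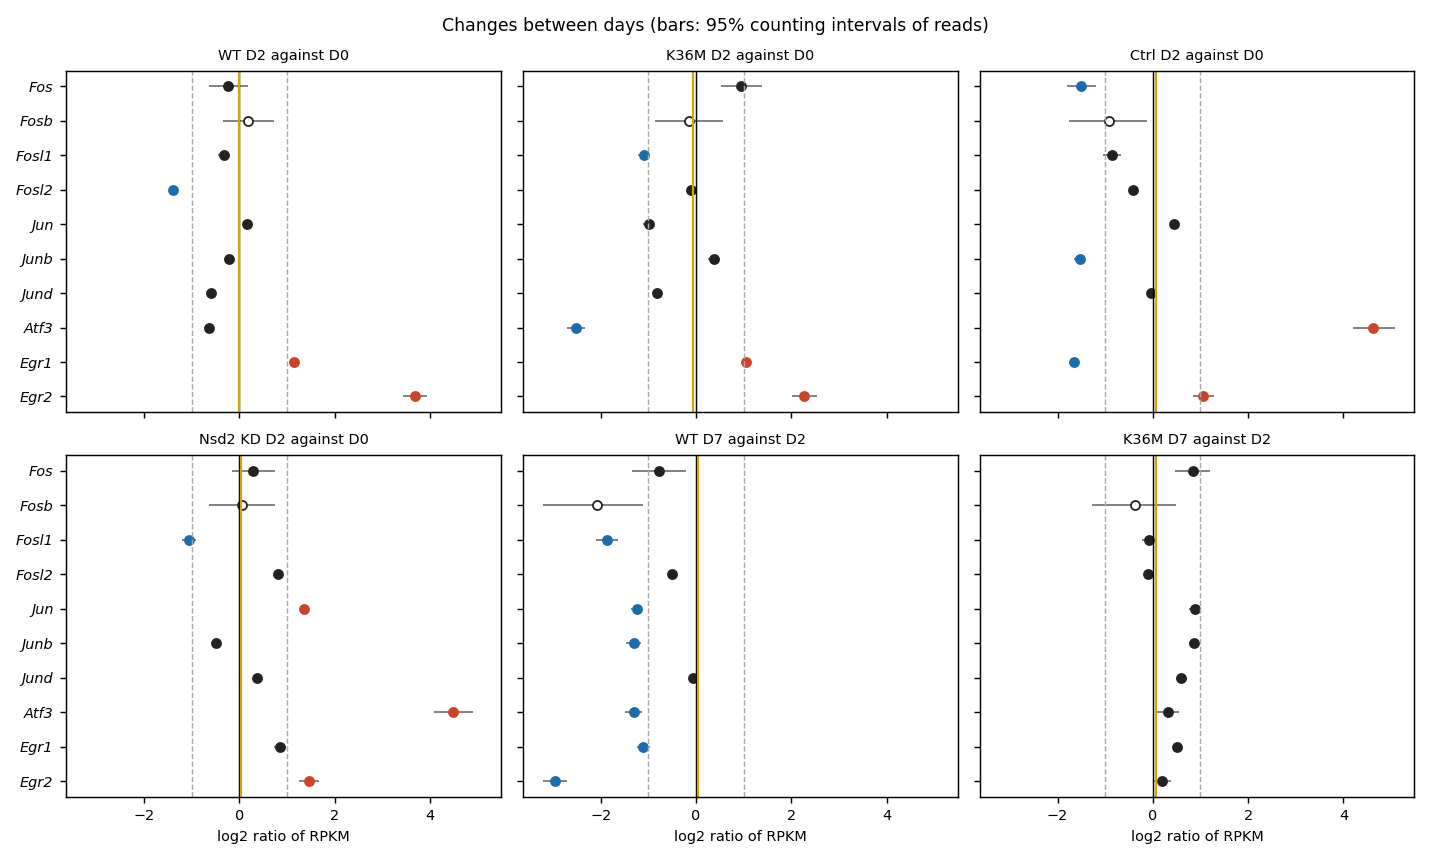
Log2 ratios of RPKM between days for the 10 genes, with 95% counting intervals, in which red points are over 2-fold higher, blue points over 2-fold lower, and open points under 1 RPKM in both libraries. Dashed lines mark 2-fold, and the yellow line marks the median of all genes counted. *Egr2* lies to the right of 2-fold in the 4 panels of D2 against D0 (in Ctrl cells at 1.05, and at 0.90 with a pseudocount of 1), and all 10 points lie left of 0 in WT cells between D2 and D7.

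The next question was what K36M changed. At D0 *Egr1* (1.28, 1.17 to 1.39) and *Fosl1* (1.04, 0.94 to 1.14) were higher in K36M than in WT cells. These are 2 of 9 genes higher and none lower, where 5.02% of genes were higher and 6.36% lower. Under median-ratio scaling *Fosl1* fell just short of 2-fold (0.97). At D2 *Egr1* was higher (1.18, 1.09 to 1.26), and *Atf3* (−1.59, −1.79 to −1.40), *Jun* (−1.15, −1.27 to −1.04), and *Egr2* (−1.10, −1.25 to −0.96) were lower. Thus 1 of 9 was higher and 3 lower, where 11.2% of genes were higher and 4.37% lower.

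At D7 the difference was largest. *Egr1* was 6.96-fold higher in K36M cells (2.80, 2.68 to 2.92), *Junb* 5.36-fold (2.42, 2.26 to 2.58), *Fos* 4.99-fold (2.32, 1.81 to 2.87), *Fosl1* 4.18-fold (2.06, 1.82 to 2.31), and *Egr2* 4.15-fold (2.05, 1.79 to 2.33). That is 5 of 9 genes higher and none lower, where 11.7% of genes were higher and 8.46% lower. All 9 ratios were above 0, with a median of 2.05 against 0.12 over all genes counted, although that of *Atf3* (0.03, −0.20 to 0.25) had an interval that included 0 and was −0.09 with the libraries scaled by their median ratio. Beside this, 5 of 5 adipocyte markers counted were over 2-fold lower in K36M cells at D7, with a median log2 ratio of −3.95. Of 6 brown preadipocyte markers 2 were higher and 1, *Pparg*, lower (21.4 against 101 RPKM). The part of these markers in the result was not tested. Under that scaling the same 5 genes passed 2-fold.

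**Figure D4:**
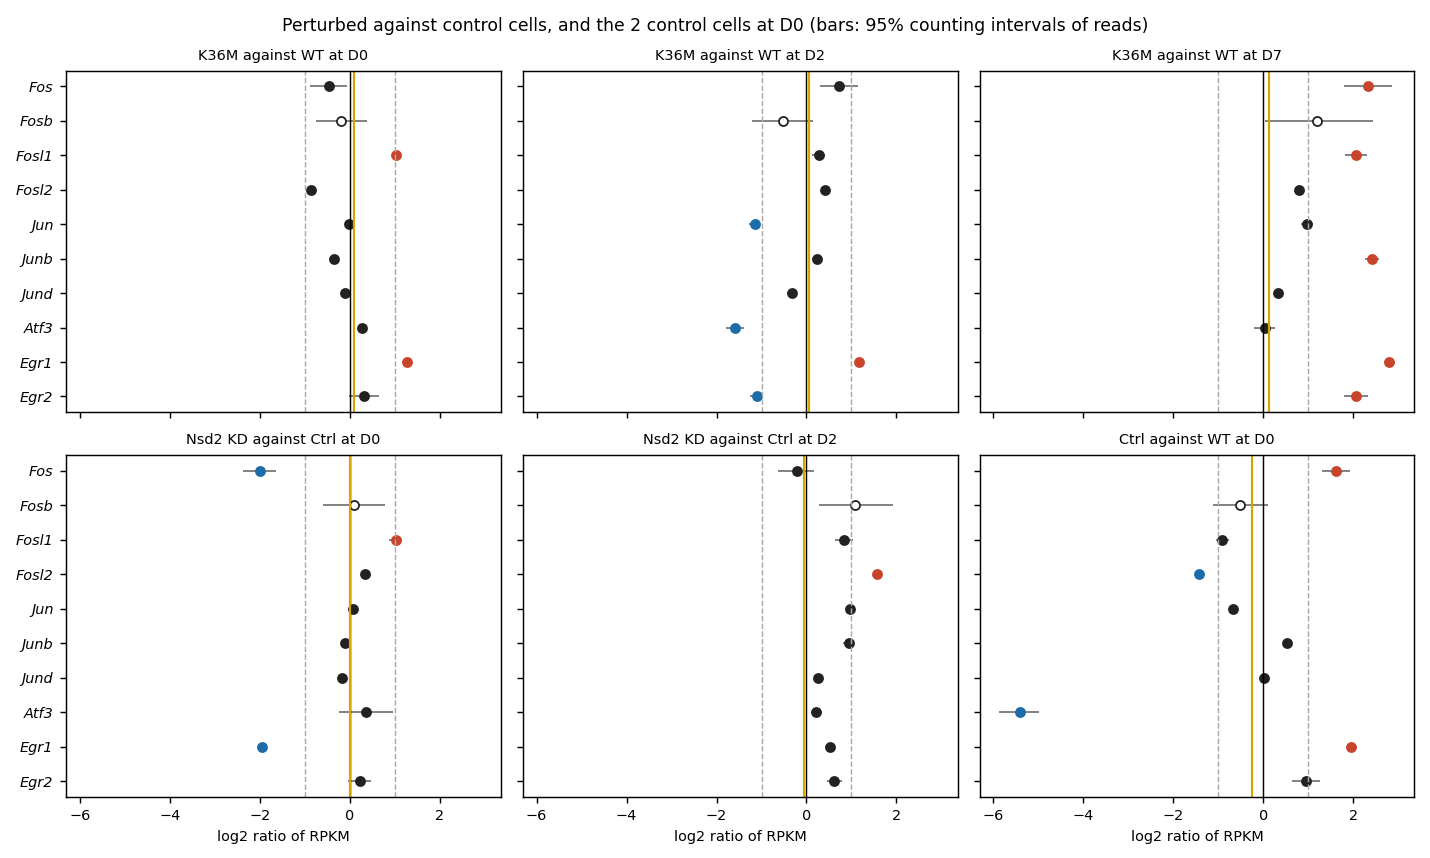
Log2 ratios of RPKM for the 10 genes, with 95% counting intervals, for K36M against WT cells at 3 days, Nsd2 KD against Ctrl cells at D0 and D2, and Ctrl against WT cells at D0. Red points are over 2-fold higher, blue points over 2-fold lower, open points under 1 RPKM in both libraries, dashed lines mark 2-fold, and the yellow line marks the median of all genes counted. At D7 all points lie at or right of 0, and *Egr1* is farthest right (2.80).

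The following comparison asked what Nsd2 KD changed. At D0 *Fos* was 4.02-fold lower (−2.01, −2.38 to −1.64) and *Egr1* 3.88-fold lower (−1.96, −2.07 to −1.85) in Nsd2 KD cells, and *Fosl1* was 2.03-fold higher (1.02, 0.88 to 1.16). These are 1 of 9 genes higher and 2 lower, where 6.61% of genes were higher and 10.8% lower. At D2 *Fosl2* was 2.96-fold higher (1.57, 1.50 to 1.63) and no gene was lower. The count was 1 of 9 higher and none lower, where 4.88% of genes were higher and 9.57% lower. *Jun* (0.97, 0.89 to 1.04), *Junb* (0.94, 0.81 to 1.06), and *Fosl1* (0.83, 0.64 to 1.03) lay just inside 2-fold, and 8 of 9 ratios were above 0, with a median of 0.62 against −0.05 over all genes counted. This count depends on the scaling, which raised it to 3 with *Jun* and *Junb*. Beside this, 5 of 5 adipocyte markers counted were over 2-fold lower in Nsd2 KD cells at D2, with a median log2 ratio of −4.53. Of 6 brown preadipocyte markers, 5, including *Pparg* (16.9 against 37.7 RPKM), were also lower and 1 higher, with a median of −1.77. The part of these markers in the result was not tested.

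*Egr1* at D0 was thus higher in K36M than in WT cells and lower in Nsd2 KD than in Ctrl cells. *Fosl1* at D0 was about 2-fold higher in each perturbed library than in its own control, and in Nsd2 KD cells its ratio was 0.98 with a pseudocount of 1. With PPARγ and DMSO, *Fosl1* was instead slightly lower in K36M than in WT cells (−0.24, −0.32 to −0.15). Between the control libraries at D0, *Fosl1* lay almost as far apart, lower in Ctrl than in WT cells (−0.91, −1.05 to −0.77). Its Nsd2 KD level at D0 (38.1 RPKM) was near that of WT cells (35.3). The *Fos* and *Egr1* ratios of Nsd2 KD to Ctrl at D0 rest on a Ctrl library in which *Fos* had its highest level of the 14 and *Egr1* the third highest.

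Ctrl and WT cells are both controls at the same days, so their ratio shows how far libraries without a perturbation lay apart between experiments. At D0 *Atf3* was 42.6-fold lower in Ctrl cells (−5.41, −5.87 to −4.99), *Fosl2* 2.70-fold lower (−1.43, −1.49 to −1.38), *Egr1* 3.86-fold higher (1.95, 1.85 to 2.05), and *Fos* 3.07-fold higher (1.62, 1.32 to 1.93). These are 2 of 9 genes higher and 2 lower, where 7.1% of genes were higher and 15.1% lower. The median over all genes counted was −0.24 here. At D2 *Egr2* (−1.67, −1.81 to −1.53) and *Fosl1* (−1.44, −1.62 to −1.26) were lower, which is 2 of 9 lower and none higher, where 6.42% of genes were lower and 4.82% higher. The 2 kinds of cells carried different vectors, and vector and experiment cannot be told apart. At D0 these control libraries lay farther apart in *Atf3* than the K36M and WT libraries did in any of the 10 genes at any day, and for *Egr1* the distance between controls (1.95) was larger than that between K36M and WT at D0 (1.28) and D2 (1.18) and smaller than that at D7 (2.80).

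With ectopic PPARγ, libraries with Rosi, labelled 24 h, were compared with libraries with DMSO, labelled 0. Under these labels ligand and time in culture cannot be told apart, although the methods give 24 h for both. In WT cells *Atf3* was 12.8-fold higher with Rosi (3.68, 3.27 to 4.11) and *Egr2* 2.56-fold higher (1.36, 0.88 to 1.85, at 2.22 RPKM at most, and 0.79 with a pseudocount of 1), and *Fosl1* was 2.28-fold lower (−1.19, −1.31 to −1.07). The count was 2 of 9 higher and 1 lower, where 9.96% of genes were higher and 5.05% lower. In K36M cells *Atf3* was 35.4-fold higher (5.15, 4.83 to 5.48), and *Fos* (−1.98, −2.73 to −1.30) and *Junb* (−1.09, −1.23 to −0.96) were lower. These are 1 of 8 genes higher and 2 lower, where 7.9% of genes were higher and 8.85% lower. *Jun* was higher with Rosi in both (0.72 in WT, 0.80 in K36M), within 2-fold.

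Between K36M and WT cells with PPARγ, *Fos* was higher in K36M cells with DMSO (1.41, 0.95 to 1.90), and *Egr1* lay at the 2-fold line (1.00, 0.91 to 1.10). These are 2 of 8 genes higher and none lower, where 5.09% of genes were higher and 3.11% lower. With a pseudocount of 1 both fell short of 2-fold (0.91 for *Fos* and 0.97 for *Egr1*), and with the libraries scaled by their median ratio *Egr1* did (0.97). With Rosi *Atf3* was 3.89-fold higher (1.96, 1.81 to 2.10), and *Egr2* (−2.21, −3.02 to −1.48), *Fos* (−1.17, −1.99 to −0.42), and *Fosl2* (−1.12, −1.22 to −1.03) were lower in K36M cells. That is 1 of 9 higher and 3 lower, where 7.02% of genes were higher and 12.1% lower. With a pseudocount of 1 the *Fos* ratio was −0.62, inside 2-fold. Both *Fos* and *Egr2* were below 2.3 RPKM in these Rosi libraries, and the *Egr2* value of K36M cells rests on 18 reads.

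**Figure D5:**
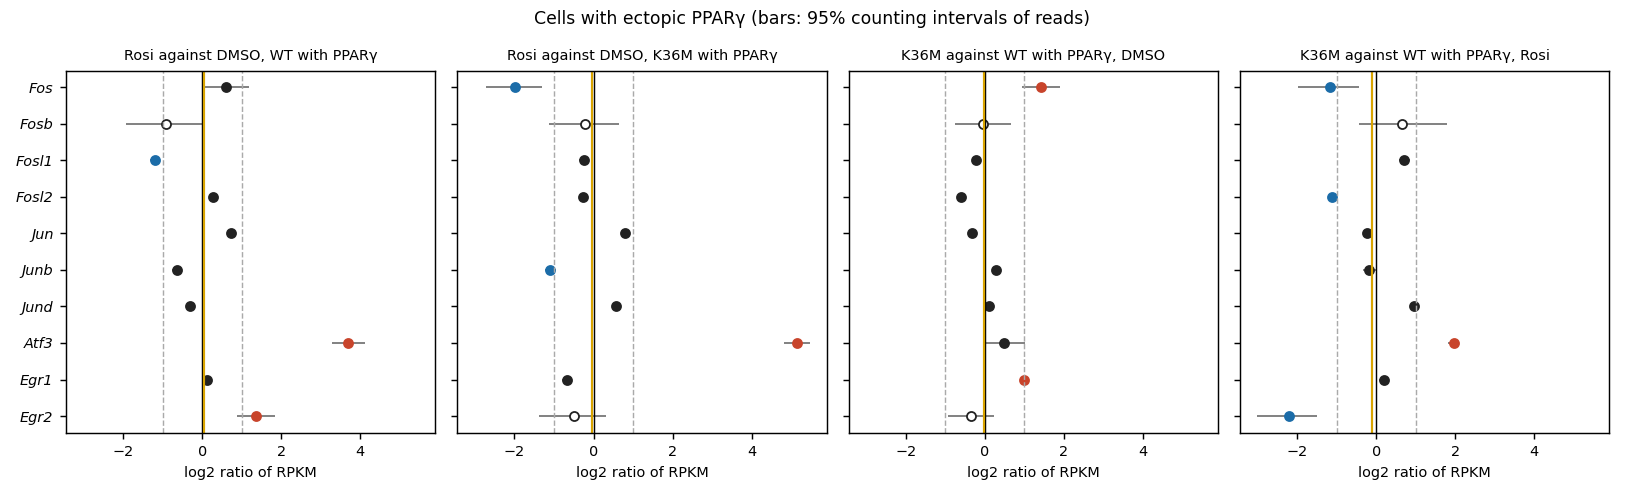
Log2 ratios of RPKM for the 10 genes in cells with ectopic PPARγ, with 95% counting intervals, for Rosi against DMSO in WT and in K36M cells and for K36M against WT cells with DMSO and with Rosi. Red points are over 2-fold higher, blue points over 2-fold lower, open points under 1 RPKM in both libraries, dashed lines mark 2-fold, and the yellow line marks the median of all genes counted. *Atf3* is farthest right in the Rosi panels, at 3.68 and 5.15.

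Genes that act with or on these factors were listed by role, also with earlier results of these data known. Of the partner leucine zipper factors, 9 of 10 listed genes were found. *Atf4* was higher at D2 in Ctrl (1.70) and Nsd2 KD cells (2.02) and with Rosi in WT (1.11) and K36M cells (1.31), the same 4 comparisons in which *Atf3* was over 10-fold higher. *Maff*, a small MAF protein, was lower at D2 in WT (−2.19), K36M (−2.36), and Ctrl cells (−1.43). At D7, 4 of 9 partner genes counted were higher in K36M than in WT cells and none lower, where 11.7% of all genes were higher and 8.46% lower, including *Mafk* (1.16) and *Maff* (1.11). Of the EGR relatives and the NAB corepressors, which bind EGR proteins and limit their activity, *Nab2* was higher in K36M than in WT cells at D2 (49.4 against 18.4 RPKM, 1.43) and at D7 (56.2 against 19.7, 1.51). *Egr1* was also higher on those days, and at D0, when *Nab2* had 50.2 RPKM in K36M and 45.0 in WT cells. In Nsd2 KD cells at D0 *Nab2* had 82.7 RPKM against 41.9 in Ctrl cells, whereas *Egr1* was lower in Nsd2 KD cells (−1.96). Of the 3 listed genes counted in that comparison, 1 was higher (*Egr3*, 2.38) and 1 lower (*Nab1*, −1.24). Over all genes, 6.61% were higher and 10.8% lower there.

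Of 6 SRF and ternary complex factor genes, which carry growth factor signals to *Fos* and *Egr1*, *Elk3* was lower at D2 in WT (−2.23), Ctrl (−3.03), and Nsd2 KD cells (−3.25). *Elk3* was higher in K36M than in WT cells at D2 (1.39) and D7 (1.68), and lower with Rosi in WT (−1.32) and K36M cells (−1.62). Of 10 MAP kinase genes, none differed over 2-fold between K36M and WT cells at D0, D2, or D7. Over all genes, 5.02%, 11.2%, and 11.7% were higher and 6.36%, 4.37%, and 8.46% lower. With PPARγ and Rosi 1 of 10 was lower in K36M cells (*Mapk3*, −1.16) and none higher, against 12.1% and 7.02% of all genes. At D2 against D0 in WT cells 2 of 10 were lower (*Mapk7*, −1.39, and *Mapk3*, −1.05) and none higher, against 17.3% and 9.38%. Of 10 genes for MAP kinase feedback inhibitors, 9 were counted at D2 against D0. In WT cells 2 were higher and 2 lower, where 9.38% of all genes were higher and 17.3% lower. *Dusp4* and *Spry4* were 3.07 and 2.68 higher on the log2 scale, and *Spry1* was lower (−1.47). *Dusp4* and *Spry4* were also higher in Ctrl cells (1.44 and 1.19), and *Dusp5* was lower (−2.56). There 2 of 9 were higher and 3 lower, against 11.3% and 16.1% of all genes. In K36M cells *Spry4* was higher (1.23) and *Dusp4* lower (−1.37), which is 1 of 9 in each direction, against 10.2% and 11.2%. In Nsd2 KD cells 1 of 9 was higher and 3 lower, against 11.8% and 16.8%. At D2 the Nsd2 KD library was below Ctrl for *Dusp4* (−3.41) and *Spry4* (−2.43), and at D0 for *Spry1* (−2.65) and *Dusp1* (−1.75). At D2 2 of 10 were higher and 2 lower, against 4.88% and 9.57% of all genes. At D0 1 of 10 was higher and 3 lower, against 6.61% and 10.8%. In K36M against WT cells 1 of 9 was higher (*Dusp4*, 2.13) and 1 lower (*Spry1*, −2.75) at D0, against 5.02% and 6.36%. At D2 1 was higher and 3 lower, led by *Dusp4* (−2.31), against 11.2% and 4.37%. At D7 2 were higher and none lower, against 11.7% and 8.46%.

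Of 16 other immediate early genes, 8 were lower and 3 higher at D2 than at D0 in WT cells, 7 of 15 lower and 2 higher in K36M cells, 7 of 16 lower and 4 higher in Ctrl cells, and 4 of 15 lower and 3 higher in Nsd2 KD cells. Over all genes, 17.3%, 11.2%, 16.1%, and 16.8% were lower and 9.38%, 10.2%, 11.3%, and 11.8% higher in these 4 courses. *Nr4a1*, an orphan nuclear receptor, was among the higher ones in all 4, by 3.83 in WT, 4.00 in K36M, and 1.47 in Nsd2 KD cells, and with 25.2 against 5.54 RPKM in Ctrl cells. *Ccn2*, a matrix protein gene, was lower in WT (−6.58), Ctrl (−7.85), and Nsd2 KD cells (−4.98), with 0.707 to 1.11 RPKM in these libraries at D2, and also over 2-fold lower in K36M cells (29.2 RPKM at D0 and 10.7 at D2). At D7 5 of 15 were higher in K36M than in WT cells and none lower, against 11.7% and 8.46% of all genes, led by *Ier3* (2.17), *Gadd45b* (1.56), and *Ccn1* (1.45). Of 7 genes of cAMP and CREB signalling, none was lower at D2. In WT cells 3 were higher, in K36M cells 2, in Ctrl cells 3, and in Nsd2 KD cells 5. Over all genes, 9.38%, 10.2%, 11.3%, and 11.8% were higher and 17.3%, 11.2%, 16.1%, and 16.8% lower. *Pde4d*, a cAMP phosphodiesterase, was among the higher genes in all 4 (3.57, 3.60, 2.61, and 1.55). It was lower again at D7 than at D2 in WT (−3.47) and K36M cells (−2.93), whereas *Egr2* was lower at D7 in WT cells alone.

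The last list held 12 genes that AP-1 is known to activate, in matrix breakdown, adhesion, and the cell cycle. In WT cells 8 of 10 counted were lower at D2 than at D0 and none higher, where 17.3% of all genes were lower and 9.38% higher. The median log2 ratio was −2.86, with *Plau* (−4.58), *Ccnd1* (−3.67), and *Plaur* (−3.18) among the lower genes. In K36M cells 4 of 8 were lower, in Ctrl cells 5 of 8 lower and 1 higher, and in Nsd2 KD cells 5 of 8 lower. In these courses 11.2%, 16.1%, and 16.8% of all genes were lower, and 10.2%, 11.3%, and 11.8% higher. With Rosi 6 of 8 were lower in WT and 4 of 7 in K36M cells, and none higher. There 5.05% and 8.85% of all genes were lower, and 9.96% and 7.9% higher. From D2 to D7, 8 of 11 were higher in K36M cells and none lower (median 1.70), against 2 of 8 higher and 2 lower in WT cells. Over all genes, 15.7% were higher in each, and 7.02% lower in K36M and 5.08% in WT cells. At D7, 8 of 11 were higher in K36M than in WT cells and none lower (median 1.57), led by *Timp1* (240 against 31.4 RPKM, 2.93), *Plaur* (2.23), and *Cd44* (1.57). In that comparison 11.7% of all genes were higher and 8.46% lower.

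The 10 genes were also compared with each other over the 14 libraries, which share cells, days, and cell populations, so the correlations describe these libraries only. On the log2 scale, *Fos* was most like *Egr1* (Pearson's r = 0.696) and *Junb* (0.691), and *Junb* was also like *Egr1* (0.592). *Fos* and *Fosl1* were not alike (−0.153). Among 11564 other genes, those most like *Fosl1* were *Ccdc85b* (0.957), *Ptgs2* (0.916), *Ptgs2os* (0.889), *Pusl1* (0.878), and *Ercc1* (0.878). *Ptgs2* and its antisense gene *Ptgs2os* cannot be told apart in libraries that do not mark strand. Those most like *Fos* were *Fnbp1* (0.846), *Tsc2* (0.811), *Ift80* (0.801), *Notch3* (0.794), and *Dnajc10* (0.785).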

How the data were processed

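RNA-Seq values of 14 libraries of brown preadipocytes were used. Methods describe mRNA purified with Dynabeads and libraries made with NEBNext Ultra II, which does not mark strand. The authors deposited RPKM per RefSeq transcript. The submitters' processing notes name CASAVA 1.8.2, SICER, and mm9 without saying what each was used for, and the program that mapped and counted RNA-Seq reads is not given in the sources used here. The other 20 of 34 samples, from ChIP-Seq, were not analysed here.

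Symbols were found for 28436 of 29082 transcripts in a RefSeq table (GRCm38.p6, names only), and for each gene the transcript of highest mean RPKM over the 14 libraries was taken. Coordinates are those of GENCODE M1 on NCBIM37, the assembly of mm9. Since RPKM hold whole reads divided by constants, reads could be recovered for 26940 of the 26946 transcripts detected in 2 or more libraries. Depth ranged from 12213559 to 24365867 mapped reads. Ratios have 95% Clopper-Pearson intervals of the share of both libraries' reads that fell in 1, corrected for depth. With 1 library per condition, no single comparison was tested. K36M and WT libraries were also compared over their 5 matched pairs (3 days, DMSO, and Rosi) with an exact two-sided sign-flip permutation test for each of the 10 members, added after the data were seen and not adjusted, and no model across all genes was fitted over these pairs. A gene was counted with at least 1 RPKM in 1 of the 2 libraries and called over 2-fold. The recovery, calls, and intervals were tested on simulated data.

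All 10 members are named. From each list of related genes, at most 3 genes per comparison were named, those with the largest log2 ratio over 2-fold and at least 5 RPKM in 1 library, and for *Fos* and *Fosl1* the 5 genes with the highest Pearson's r of log2(RPKM + 0.1) among those with 1 RPKM in at least 7 libraries. *Nsd2*, *Pparg*, and *Nr3c1* served to check labels. *Atf4* and *Nr4a1* levels beyond this rule, *Nab2* at D0, *Ccn2* in K36M cells, and *Ucp1*, *Myod1*, and *Myog*, were added after values were seen. The members and lists were chosen with earlier results of these data known. Alternatives were no filter, a pseudocount of 1, median-ratio scaling, and summed transcripts. Python 3.11.15, numpy 2.4.6, pandas 2.3.3, scipy 1.17.1, and matplotlib 3.10.9 were used. *Atf7* and *Cd68* were not matched.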

Additional observations from a re-analysis of the deposited data

Results flagged for a closer look

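In 3 cases results differed in direction between sets of cells with over 2-fold change on both sides, and with 1 library per condition these differences were not tested. *Egr1* was higher at D2 than at D0 in WT cells (log2 ratio 1.14) and lower in Ctrl cells (−1.64), a difference of −2.79. *Egr2* was lower in K36M than in WT cells at D2 (−1.10) and higher at D7 (2.05), a difference of 3.16. With ectopic PPARγ, the K36M to WT ratio of *Fos* was above 0 under DMSO (1.41) and below 0 under Rosi (−1.17), a difference of −2.59, in libraries where *Fos* had 0.755 to 2.98 RPKM. With a pseudocount of 1 these were 0.91 and −0.62, so both lay inside 2-fold.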

How the results depend on the processing

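Without replicates, the counts over 2-fold have no replicate check, and the intervals cover counting error only. No paired analysis was possible because groups share 1 replicate number only, which gives no replicate block. This does not concern the pairs of K36M and WT libraries of the same day or treatment, which were tested by permutation but are not independent replicates. Of the 17 counts of members over 2-fold, 14 stayed within 1.5 times under median-ratio scaling, 16 with no filter, 16 with a pseudocount of 1, and 17 with summed transcripts. For K36M against WT cells at D0 the count was 1 under median-ratio scaling, without *Fosl1*, against 2. For K36M against WT cells with PPARγ and DMSO it was 0 with a pseudocount of 1, without *Fos* and *Egr1*, and 1 under median-ratio scaling, against 2. For Nsd2 KD against Ctrl cells at D2 it was 2 with no filter and 3 under median-ratio scaling, against 1. Of the calls of single members, 6 were lost with a pseudocount of 1, and 3 were lost and 5 gained under median-ratio scaling. No filter adds *Fosb* in Nsd2 KD against Ctrl cells at D2, a pseudocount shrinks ratios of low genes by construction, and scaling moves genes that lie near 2-fold. No member's ratio over 2-fold, nor mean over the 5 pairs, changed sign under the settings run. Scaling moved the median of all genes by up to 0.24 on the log2 scale, in Ctrl against WT cells at D0. Depth limits *Fos*, *Fosb*, and *Egr2* most, which had as few as 20, 10, and 18 reads.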
